A study of Mus musculus with 6 samples.

Results

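The genes described here are 9 genes of the epidermal lipid barrier: the lipoxygenases Alox12b, Aloxe3 and Alox12e, the fatty acid elongase Elovl4, the ceramide synthase Cers3, the transacylase Pnpla1, the glucosyltransferase Ugcg, the lipid transporter Abca12 and the sphingomyelinase Smpd1. They were given as a list of names with no threshold on a measured value, although earlier results of these data were known when the list was made. All 9 were among the 43629 genes of the count table. The other 8 passed the filter on low counts that left 16829 genes for testing, and Alox12e did not. The libraries came from mouse epidermal keratinocytes in which the maintenance DNA methyltransferase Dnmt1 had been deleted (Dnmt1Δ/Δep), and from control keratinocytes.

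Dnmt1Δ/Δep mice carried 2 floxed Dnmt1 alleles and a Cre recombinase under the keratin 5 promoter, so that deletion was directed to keratin 5-expressing cells, and control mice carried floxed Dnmt1 without Cre. Both were on a mixed C57BL/6J and 129SV background. Epidermis was taken at postnatal day 3 from 3 mice per group, all labelled female. The keratinocytes of both groups were grown, for 5 days by the labels and methods and for a shorter time by a figure legend of the study, on coated dishes in 0.05 mM CaCl2 and 8% chelated serum, which is a low-calcium culture and not intact skin, and their poly(A) RNA was sequenced. Control replicates 1, 2 and 3 were sequenced on the same lanes as Dnmt1Δ/Δep replicates 1, 2 and 3, which makes 3 lane pairs.

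The water barrier of the skin depends on lipid sheets that granular keratinocytes secrete from lamellar granules. In this pathway ELOVL4 lengthens fatty acids, CERS3 joins them to a sphingoid base, PNPLA1 adds linoleate, UGCG adds glucose, ABCA12 loads the product into granules, and the lipoxygenases ALOX12B and ALOXE3 oxidise the linoleate in successive steps before the lipid is bound to the cornified envelope. Inherited loss of ALOX12B, ALOXE3, ABCA12, CERS3 or PNPLA1 causes congenital ichthyosis in humans.

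Depth and identity of the libraries bear on every value that follows. Gene reads per library ranged from 53433121 to 115526598, and levels are given as CPM, counts scaled to a common library size with TMM factors. At these depths 3 counts, read as the limit that a count of 0 allows, were worth between 0.0254 and 0.0558 CPM, and this covers counting error only. Dnmt1 measured 394, 379 and 324 CPM in control and 49.7, 54.3 and 50.7 CPM in Dnmt1Δ/Δep replicates 1, 2 and 3, a log2 fold change of -2.83 (SE 0.11, adjusted p 8.1e-05 in edgeR's quasi-likelihood test), so every library matched its label. Of 14 basal keratinocyte markers all passed the filter, and Krt5 lay at 12572 CPM or more in each library.

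Alox12b was the 1 lipid barrier gene called higher in Dnmt1Δ/Δep keratinocytes. A gene was called changed at an adjusted p of at most 0.05 over all 16829 genes together with a fold change of at least 2, and 1 of the 8 tested lipid barrier genes was called higher and 0 lower, against 6.03% of all tested genes called higher, 0.392% called lower and 6.42% in either direction. At an adjusted p of 0.05 without the fold threshold the count was again 1 of 8 higher and 0 lower, against 7.71% higher and 1.66% lower, or 9.36% together, among all genes. All 8 fitted changes were above 0, with a median log2 fold change of 0.61 against -0.00089 over all genes. For these cultures of mixed cells, a change in the number of cells of a type and a change in RNA per cell cannot be told apart.

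**Figure D1:**
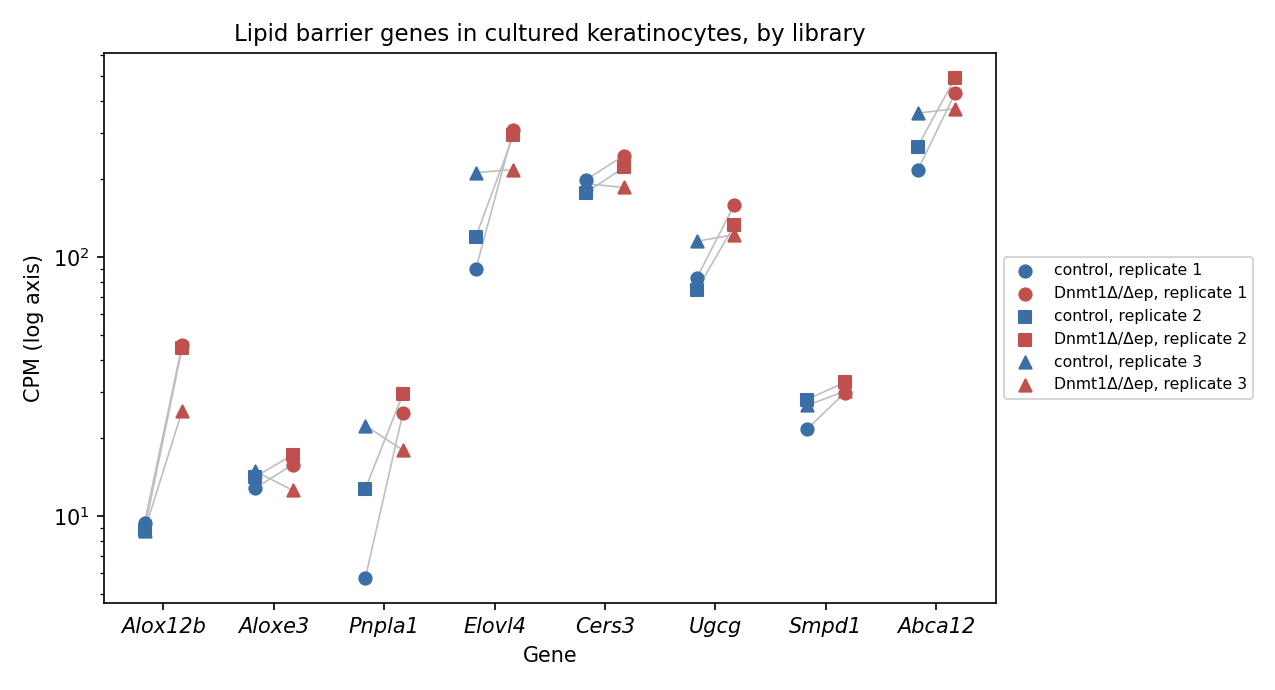
Level of the 8 tested lipid barrier genes (x axis) in each of the 6 libraries, in CPM on a log axis, with blue points for control, red points for Dnmt1Δ/Δep, 1 symbol per replicate number and grey lines between libraries of the same lane. Alox12b shows the clearest separation, with control libraries at 8.75 to 9.38 CPM and Dnmt1Δ/Δep libraries at 25.4 to 45.6 CPM, whereas Aloxe3, Cers3 and Pnpla1 overlap between the groups.

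Alox12b (ENSMUSG00000032807), which encodes the lipoxygenase that starts the oxidation of acylceramide linoleate, lies on chromosome 11 from 69156989 to 69169792 on the plus strand of GRCm38. Its level was 9.38, 8.83 and 8.75 CPM in control replicates 1, 2 and 3, and 45.6, 44.3 and 25.4 CPM in Dnmt1Δ/Δep replicates 1, 2 and 3. The control libraries were nearly level with one another, Dnmt1Δ/Δep replicate 3 was the lowest of its group, and even that library lay above every control. The means were 8.99 ± 0.341 CPM and 38.4 ± 11.4 CPM (SD, n = 3 each). The log2 fold change was 2.10 (SE 0.23, 95% interval 1.56 to 2.63, adjusted p 0.0022 in edgeR), a 4.27-fold rise with an interval from 2.95 to 6.19. Within lane pairs 1, 2 and 3 the level was 4.87, 5.02 and 2.90 times higher in the Dnmt1Δ/Δep library. None of its exonic bases were shared with another annotated gene.

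Aloxe3 (ENSMUSG00000020892) encodes the lipoxygenase that acts after ALOX12B, and it lies next to Alox12b on the same strand, from 69125896 to 69149115 on chromosome 11, with 7873 bases between the 2 genes. Aloxe3 measured 12.8, 14.1 and 14.9 CPM in control and 15.8, 17.2 and 12.6 CPM in Dnmt1Δ/Δep replicates 1, 2 and 3. The groups overlapped, since Dnmt1Δ/Δep replicate 3 held the lowest value of all 6. The log2 fold change was 0.12 (SE 0.15, 95% interval -0.23 to 0.48, adjusted p 0.71 in edgeR), which in fold terms allows from 0.851 to 1.40. A rise of the size seen for Alox12b was therefore outside the interval of its neighbour. Without Dnmt1Δ/Δep replicate 2 the sign turned, to -0.03.

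The unequal response of the 2 neighbours could be read within each library, where depth and scaling cancel. Per exonic kilobase (RPKM, which is CPM divided by exonic length), the ratio of Aloxe3 to Alox12b was 0.517, 0.607 and 0.646 in control and 0.131, 0.147 and 0.188 in Dnmt1Δ/Δep replicates 1, 2 and 3. All control ratios lay above all Dnmt1Δ/Δep ratios. The mean difference was -1.93 on the log2 scale, and an exact two-sided permutation test gave p = 0.1, the smallest that 3 against 3 libraries allow.

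Alox12e (ENSMUSG00000018907), an epidermal-type lipoxygenase 1145817 bases further along chromosome 11, was close to the limit of detection. It held 0, 4 and 6 counts in control and 1, 4 and 1 counts in Dnmt1Δ/Δep replicates 1, 2 and 3. With 10 counts in all control libraries and 6 in all Dnmt1Δ/Δep libraries no difference was detectable at this depth, and no fold change is given.

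None of the genes around Alox12b passed the test at the same thresholds. Of the 18 other tested protein-coding genes that start within 200 kb, 0 were called in either direction at both thresholds in edgeR, against 6.42% of all genes, and their median log2 fold change was -0.08, with a range from -0.66 to 0.70. At an adjusted p of 0.05 without the fold threshold 2 of them passed, against 9.36% of all genes. These were Aurkb with -0.46 (adjusted p 0.044) and Cntrob with -0.66 (adjusted p 0.024), 2 cell division genes that were lower and that are named here after their values were seen. Aurkb was above that adjusted p with any 1 library left out or at a mean RPKM of at least 1, and Cntrob without control replicate 2 or any 1 Dnmt1Δ/Δep library. Alox8, the lipoxygenase gene 14139 bases past Alox12b, measured 0.719, 0.226 and 0.391 CPM in control and 1.06, 0.520 and 0.610 CPM in Dnmt1Δ/Δep libraries, with overlapping groups (log2 fold change 0.69, adjusted p 0.47).

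**Figure D2:**
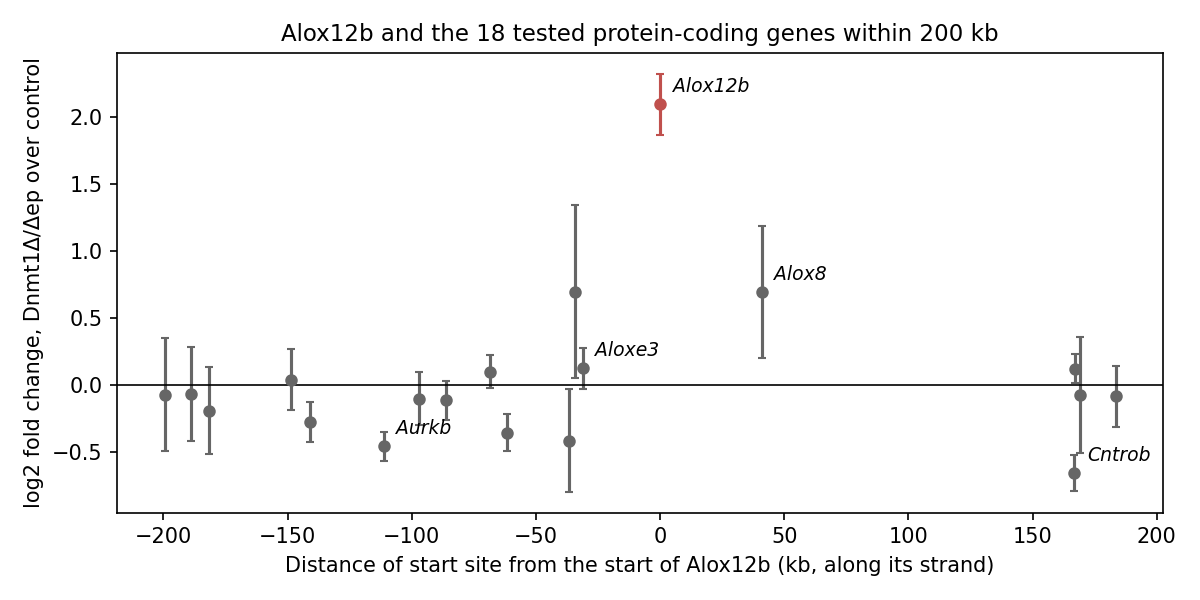
Log2 fold change of Alox12b and of the 18 tested protein-coding genes within 200 kb, plotted against the distance of their start sites in kb along its strand, with vertical bars for the standard error. Alox12b stands at 2.10, whereas the other genes of the region lie between -0.66 and 0.70.

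The DNA just upstream of the start site is shown for Alox12b, the gene called higher, and for 3 members that did not pass the test. The deleted enzyme maintains methylation at CpG sites, and these windows differ in their number of CpGs. No DNA methylation was measured in these libraries. Promoters of 8 of the 9 genes matched RefSeq entries on GRCm38.p6. Below, capitals mark CpG sites, and each sequence runs 5′ to 3′ along the gene's strand and ends before the first annotated exon. The windows are chr11:69156822-69156988 on the plus strand for Alox12b, chr9:83806306-83806555 on the minus strand for Elovl4, chr1:71414911-71415160 on the minus strand for Abca12 and chr7:66743254-66743503 on the plus strand for Cers3.
Alox12b: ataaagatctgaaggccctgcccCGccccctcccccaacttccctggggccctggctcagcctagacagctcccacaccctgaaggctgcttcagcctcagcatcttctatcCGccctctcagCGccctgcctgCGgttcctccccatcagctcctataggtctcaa
Elovl4: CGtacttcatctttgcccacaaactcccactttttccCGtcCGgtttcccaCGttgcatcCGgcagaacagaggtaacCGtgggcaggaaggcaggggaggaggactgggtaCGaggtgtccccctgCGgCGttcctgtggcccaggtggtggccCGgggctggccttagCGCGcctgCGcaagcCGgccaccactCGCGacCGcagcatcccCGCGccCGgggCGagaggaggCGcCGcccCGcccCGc
Abca12: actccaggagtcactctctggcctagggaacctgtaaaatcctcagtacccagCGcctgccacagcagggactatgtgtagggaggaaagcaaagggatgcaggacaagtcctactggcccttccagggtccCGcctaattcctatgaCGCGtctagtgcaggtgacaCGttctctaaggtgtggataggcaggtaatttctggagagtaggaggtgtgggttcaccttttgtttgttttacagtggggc
Cers3: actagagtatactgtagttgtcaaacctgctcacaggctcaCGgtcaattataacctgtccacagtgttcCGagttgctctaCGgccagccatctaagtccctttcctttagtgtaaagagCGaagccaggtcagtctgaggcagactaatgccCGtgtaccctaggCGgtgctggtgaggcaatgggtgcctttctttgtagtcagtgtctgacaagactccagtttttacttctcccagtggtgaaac
In the full 250 bases before the RefSeq start, Alox12b had 11 CpGs, which is more than 64.4% of all 32851 mouse promoters in the table, whose median was 6. Only 4 of them lay in the 167 bases before the GENCODE start, and the rest lay within the annotated gene. Elovl4 had 25 CpGs and Ugcg 43, more than 89.3% and 99.3% of promoters, but the Ugcg window lay wholly within the annotated gene. Smpd1 had 16, Cers3 6, Abca12 and Pnpla1 5 each, and Alox12e 3. The Alox12e window also reached into its gene, with 152 bases before it, and the Pnpla1 window overlapped Pnpla1os. Alox12b had neither the most nor the fewest CpGs of the 8, and a part of CpG number in any change was not tested. Searched on both strands, the AP-1 motif TGANTCA occurred in 6.75% of all promoters and the grainyhead-like core AACNNGTT in 3.64%, and neither set of letters was found in these windows of the 8 genes.

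Elovl4, Abca12 and Ugcg, which encode the fatty acid elongase, the granule transporter and the glucosylceramide synthase, were all higher in every Dnmt1Δ/Δep library than in any control library but did not pass the adjusted threshold. Elovl4 (ENSMUSG00000032262, chromosome 9, 83778692 to 83806277, minus strand) measured 89.7, 119.6 and 211 CPM in control and 309, 294 and 217 CPM in Dnmt1Δ/Δep replicates 1, 2 and 3. The lowest Dnmt1Δ/Δep library, replicate 3, was barely above the highest control, also replicate 3. The means were 140.3 ± 63.5 and 274 ± 49.4 CPM (SD, n = 3 each), with a log2 fold change of 0.96 (SE 0.31, 95% interval 0.24 to 1.69, adjusted p 0.10 in edgeR). Within lane pairs 1, 2 and 3 the log2 differences were 1.79, 1.30 and 0.04.

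Abca12 (ENSMUSG00000050296, chromosome 1, 71242276 to 71414910, minus strand) measured 216, 267 and 359 CPM in control and 429, 491 and 373 CPM in Dnmt1Δ/Δep replicates 1, 2 and 3. As for Elovl4, the 2 replicates 3 came nearest to each other. The log2 fold change was 0.62 (SE 0.20, 95% interval 0.16 to 1.08, adjusted p 0.10 in edgeR), and the lane pairs gave 0.99, 0.88 and 0.06.

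Ugcg (ENSMUSG00000028381, chromosome 4, 59189257 to 59222833, plus strand) measured 82.9, 74.4 and 115 CPM in control and 159, 132 and 122 CPM in Dnmt1Δ/Δep replicates 1, 2 and 3. Control replicate 3 was again the highest control and Dnmt1Δ/Δep replicate 3 the lowest of its group, without overlap. The log2 fold change was 0.60 (SE 0.18, 95% interval 0.18 to 1.03, adjusted p 0.088 in edgeR), and the lane pairs gave 0.94, 0.83 and 0.09.

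The calls on these 3 genes depended on 1 control library, on the filter and on the test. Without control replicate 3, Elovl4 passed both thresholds with a log2 fold change of 1.38 (adjusted p 0.014 in edgeR), while Abca12 and Ugcg passed the adjusted p alone, at 0.033 and 0.025. The Wald test of DESeq2 gave adjusted p values of 0.020, 0.048 and 0.038 for Elovl4, Abca12 and Ugcg, each with a fold change under 2. With no filter on low counts Elovl4 passed the adjusted p alone (0.028 in edgeR), and Ugcg (0.0504) and Abca12 (0.068) did not.

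Smpd1, Cers3 and Pnpla1 gave smaller or less even differences. Smpd1 (ENSMUSG00000037049, chromosome 7, 105554360 to 105558389, plus strand), the acid sphingomyelinase that releases ceramide from sphingomyelin, measured 21.6, 28.1 and 26.7 CPM in control and 29.8, 32.7 and 30.2 CPM in Dnmt1Δ/Δep replicates 1, 2 and 3. The groups did not overlap, but the log2 fold change was only 0.28 (SE 0.13, 95% interval -0.02 to 0.58, adjusted p 0.24 in edgeR). This change was 0.17 without control replicate 1 and 0.36 without control replicate 2. Cers3 (ENSMUSG00000030510, chromosome 7, 66743504 to 66823691, plus strand), the ceramide synthase for very long acyl chains, measured 198.8, 177 and 192 CPM in control and 246, 221 and 185 CPM in Dnmt1Δ/Δep libraries. Here Dnmt1Δ/Δep replicate 3 fell within the control range, and the log2 fold change was 0.20 (SE 0.12, 95% interval -0.09 to 0.49, adjusted p 0.39 in edgeR). For Cers3 the change was 0.11 without Dnmt1Δ/Δep replicate 1 and 0.31 without Dnmt1Δ/Δep replicate 3.

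Pnpla1 (ENSMUSG00000043286, chromosome 17, 28858411 to 28890309, plus strand), which transfers linoleate to the ceramide, had the widest relative spread among the controls of the 8 tested genes. It measured 5.77, 12.7 and 22.3 CPM in control and 25.0, 29.6 and 17.9 CPM in Dnmt1Δ/Δep replicates 1, 2 and 3. The coefficient of variation was 61.0% in control, against 45.2% for Elovl4 and 3.79% for Alox12b, and the groups overlapped through the 2 replicates 3. The log2 fold change was 0.83 (SE 0.44, 95% interval -0.21 to 1.87, adjusted p 0.32 in edgeR), an interval that includes both no change and more than a 2-fold change. It was 0.46 without control replicate 1 and 1.38 (adjusted p 0.080 in edgeR) without control replicate 3. Of its exonic bases 13.3% overlap the antisense gene Pnpla1os, whose reads may have been lost from or added to this count.

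The groups did not overlap for 5 of the 8 tested genes, Alox12b, Elovl4, Abca12, Ugcg and Smpd1, with the Dnmt1Δ/Δep libraries above in each, against 18.2% of all tested genes with the same order and 29.9% in either order. The size of the difference varied with the lane pair. Pairs 1 and 2 gave a higher level in the Dnmt1Δ/Δep library for 8 of 8 genes, with medians of 0.97 and 0.86 on the log2 scale. Pair 3 gave the smallest difference for 8 of 8 genes, a median of 0.05 and a lower level for Aloxe3, Cers3 and Pnpla1. Over all tested genes the medians of the 3 pairs were 0.0032, -0.0039 and 0.018. Control replicate 3 was the highest control for 5 of 8 genes, and Dnmt1Δ/Δep replicate 3 was the lowest of its group for 7 of 8.

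**Figure D3:**
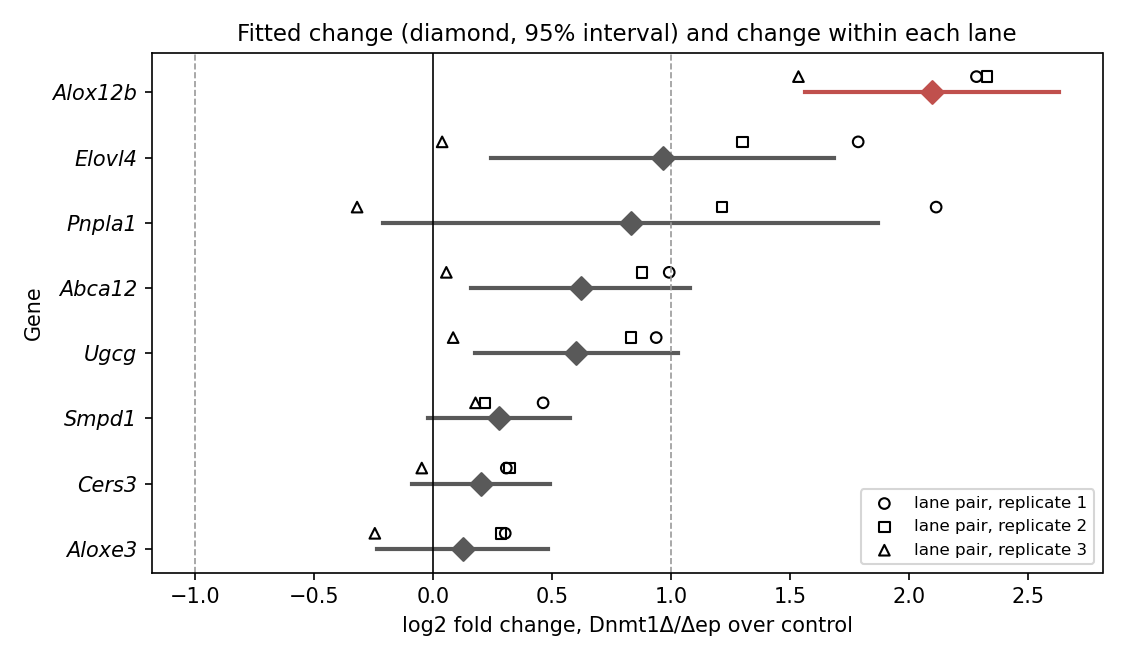
Log2 fold change of the 8 tested lipid barrier genes, Dnmt1Δ/Δep over control, with diamonds for the fitted value, horizontal lines for its 95% interval, open symbols for each of the 3 lane pairs and dashed lines at a 2-fold change. The interval of Alox12b, 1.56 to 2.63, is the one that lies wholly above 1, and lane pair 3 sits lowest for each gene.

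The order of levels between the genes was compared per exonic kilobase, as RPKM. In control keratinocytes Cers3 (58.1 ± 3.37 RPKM, SD, n = 3) and Elovl4 (46.3 ± 21.0 RPKM) were highest and did not differ beyond their spread, followed by Abca12 (18.9 ± 4.90 RPKM) and Ugcg (17.4 ± 4.09 RPKM), which also overlapped. Smpd1 lay at 7.64 ± 1.02 RPKM. Alox12b (3.70 ± 0.14 RPKM), Pnpla1 (2.81 ± 1.72 RPKM) and Aloxe3 (2.18 ± 0.167 RPKM) were lower, and Pnpla1 overlapped with each of its 2 neighbours in this order. Alox12e was last, at 0.0180 RPKM.

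In Dnmt1Δ/Δep keratinocytes the order differed in 2 places. Elovl4 (90.4 ± 16.3 RPKM) stood before Cers3 (66.8 ± 9.38 RPKM), although their ranges overlapped. Alox12b stood before Smpd1, at 15.8 ± 4.67 RPKM against 9.27 ± 0.470 RPKM, with no overlap. The remaining levels were 29.1 ± 3.97 RPKM for Abca12, 26.4 ± 3.64 for Ugcg, 4.99 ± 1.21 for Pnpla1, 2.37 ± 0.371 for Aloxe3 and 0.00843 for Alox12e. Within single libraries the ratio of Cers3 to Elovl4 was 2.06, 1.38 and 0.842 in control and 0.740, 0.699 and 0.793 in Dnmt1Δ/Δep replicates 1, 2 and 3, a log2 difference of -0.85 (exact two-sided permutation p = 0.1, the smallest possible). That difference was -0.54 without control replicate 1 and -1.18 without control replicate 3. The ratio of Ugcg to Smpd1 overlapped between the groups (log2 difference 0.33, exact permutation p = 0.4). Leaving out control replicate 2 made it 0.13, and leaving out Dnmt1Δ/Δep replicate 1 made it 0.20.

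Other enzymes of the same routes were read in lists that leave out the 9 genes above. Of 27 ceramide and acylceramide synthesis genes 24 were tested, 0 were called in either direction at both thresholds in edgeR, against 6.42% of all genes, and their median log2 fold change was 0.06. At unadjusted p values up to 0.05, 8 were higher and 4 lower, against 15.8% and 7.79% of all genes. DESeq2 called 1 of the 24 higher, and 1284 of all 16829 genes. Sptlc2, a subunit of serine palmitoyltransferase, which makes the sphingoid base, passed the adjusted p without reaching 2-fold, with 168, 163 and 164 CPM in control and 240.4, 227 and 219 CPM in Dnmt1Δ/Δep libraries (log2 fold change 0.47, SE 0.08, adjusted p 0.016 in edgeR), and it was above that adjusted p without control replicate 2 or Dnmt1Δ/Δep replicate 1 or 2. The 2 most abundant enzymes of the list, the desaturase Degs1 (-0.23, adjusted p 0.39) and the ketoacyl reductase Hsd17b12 (0.39, adjusted p 0.14), did not pass.

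Of 23 genes for ceramide processing and turnover, 1 was called higher and 0 lower, against 6.03% and 0.392% of all genes, with a median of 0.09. This was B4galt5, a galactosyltransferase that turns glucosylceramide into lactosylceramide, at 2.15, 1.68 and 1.99 CPM in control and 5.30, 2.87 and 4.36 CPM in Dnmt1Δ/Δep replicates 1, 2 and 3. Every Dnmt1Δ/Δep library lay above the controls (log2 fold change 1.10, SE 0.27, adjusted p 0.044 in edgeR), but the call was lost without control replicate 2 or 3 and without Dnmt1Δ/Δep replicate 1 or 3. Psap, the precursor of the saposins that assist sphingolipid breakdown, had a log2 fold change of -0.59 (adjusted p 0.14), and the sphingosine phosphate lyase Sgpl1 one of 0.22 (adjusted p 0.18).

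The list nearest to the lipid barrier genes in its median held other lipoxygenases and enzymes of the hydroperoxide route. Of its 12 genes 10 were tested and 0 were called in edgeR, against 6.42% of all genes called in either direction. At unadjusted p values up to 0.05, 3 were higher and 0 lower, against 15.8% and 7.79% of all genes. DESeq2 called 2 of the 10 higher, and 1284 of all 16829 genes. The median log2 fold change was 0.54, and it was 0.30 without Dnmt1Δ/Δep replicate 2 and 0.68 without Dnmt1Δ/Δep replicate 3. Its 2 most abundant members were Tgm1, the transglutaminase of the cornified envelope, with 0.52 (adjusted p 0.29), and the epoxide hydrolase Ephx1, with -0.02 (adjusted p 0.96). Ephx3 and Sdr9c7, which act on the epoxyalcohols that ALOXE3 forms, were chosen after their values were seen in this list. Ephx3 measured 3.99, 6.11 and 10.9 CPM in control and 21.3, 21.0 and 11.7 CPM in Dnmt1Δ/Δep libraries, without overlap (log2 fold change 1.37, adjusted p 0.075 in edgeR). Sdr9c7 measured 3.87, 7.88 and 15.4 CPM in control and 28.2, 33.6 and 17.5 CPM in Dnmt1Δ/Δep libraries, without overlap (log2 fold change 1.55, adjusted p 0.094 in edgeR). In both genes the 2 replicates 3 were closest, as in Elovl4, and each was called higher in 3 of 12 alternatives.

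The remaining lists held no gene called at both thresholds in edgeR, against 6.42% of all genes. Of 20 further patatins, ABCA transporters and lamellar granule trafficking genes 16 were tested. Their median was 0.17, and it was 0.02 without control replicate 1 and 0.26 without control replicate 2. The 2 most abundant were the vesicle transport GTPase Rab11a (0.05, adjusted p 0.90) and Abca5 (0.62, adjusted p 0.072). Of 23 genes for cholesterol synthesis and sulfation 22 were tested, with a median of 0.02. The sterol reductase gene Hsd17b7 passed the adjusted p without reaching 2-fold, at 136, 127 and 149.9 CPM in control and 224, 232 and 209 CPM in Dnmt1Δ/Δep libraries (log2 fold change 0.68, adjusted p 0.0071 in edgeR), whereas Hmgcs1, which acts early in sterol synthesis, did not pass (-0.36, adjusted p 0.21).

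Of 19 transcription factors that control the granular layer and its genes, 0 were called, against 6.42% of all genes, and the median was -0.03. Gata3, which is needed for barrier lipid formation, was the 1 gene lower at the adjusted p alone, against 1.66% of all genes, with 72.4, 89.4 and 98.1 CPM in control and 52.5, 53.4 and 44.1 CPM in Dnmt1Δ/Δep libraries, and fell by 0.79 on the log2 scale (SE 0.14, adjusted p 0.015 in edgeR), but not at that threshold without control replicate 2 or Dnmt1Δ/Δep replicate 1 or 3. Klf4, a barrier regulator, gave 0.49 (adjusted p 0.054) and the epidermal master regulator Trp63 gave -0.26 (adjusted p 0.38).

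**Figure D4:**
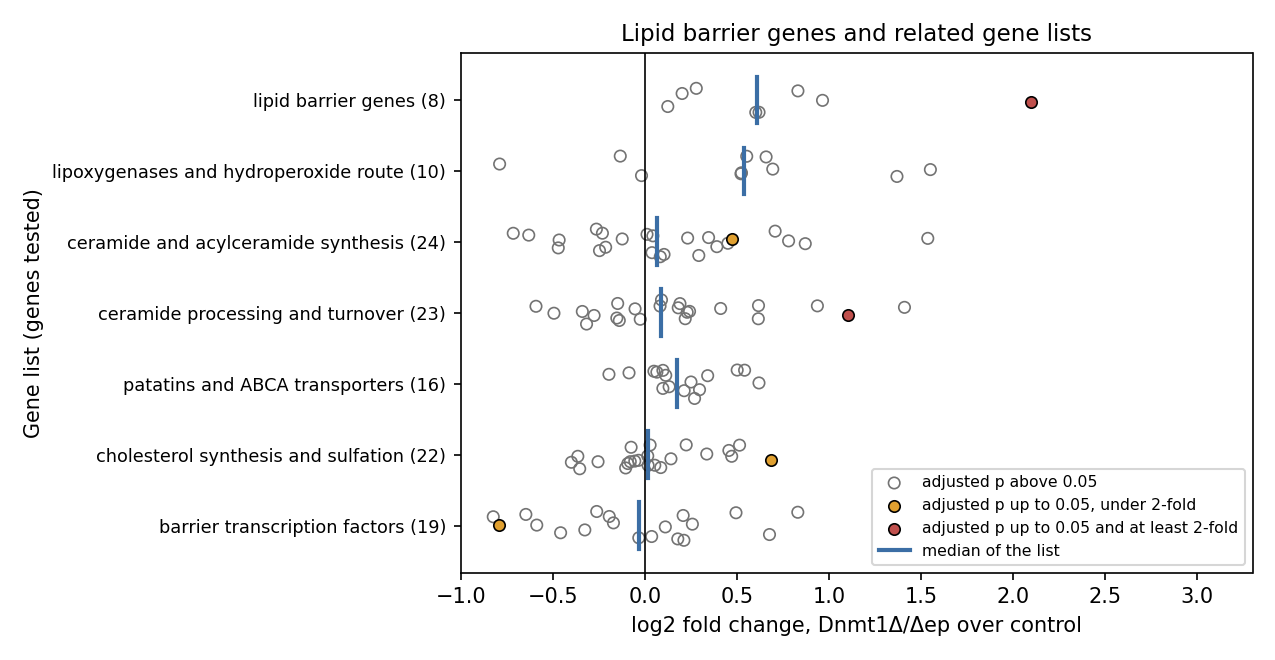
Log2 fold change of each tested gene (points) in the lipid barrier genes and in the 6 related lists, Dnmt1Δ/Δep over control, with a vertical bar at the median of each list and filled points for genes at an adjusted p of at most 0.05. The medians are 0.61 for the lipid barrier genes, 0.54 for the hydroperoxide route and between -0.03 and 0.17 for the other lists.

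The lipid barrier genes belong to differentiating keratinocytes, and markers of spinous and granular cells also differed between libraries. Of 26 such markers 24 were tested, 2 were called higher and 0 lower, against 6.03% and 0.392% of all genes, with a median log2 fold change of 0.38 and lane pair medians of 1.54, 0.81 and -0.73. Their summed level was 2517, 3841 and 6053 CPM in control and 5829, 5555 and 3599 CPM in Dnmt1Δ/Δep replicates 1, 2 and 3, so the groups overlapped, and as for the lipid barrier genes pair 3 gave the lowest difference. Calml3, a calmodulin-like protein of upper layers, measured 0.962, 3.27 and 5.44 CPM in control and 24.6, 20.6 and 13.1 CPM in Dnmt1Δ/Δep libraries (log2 fold change 2.60, adjusted p 0.033 in edgeR). Cnfn, the cornified envelope protein cornifelin, measured 20.1, 22.7 and 32.5 CPM in control and 128.7, 125.6 and 40.3 CPM in Dnmt1Δ/Δep libraries (log2 fold change 1.97, adjusted p 0.032 in edgeR). Calml3 kept its call in 8 of 12 alternatives, with an adjusted p up to 0.12, and lost it without control replicate 2 or any 1 Dnmt1Δ/Δep library. Cnfn kept it in 7 of 12, with an adjusted p up to 0.12, and lost it with the replicate block (0.070) and without replicate 1 or 2 of either group.

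The spinous keratins had lower means in Dnmt1Δ/Δep libraries, but neither passed the adjusted threshold. Krt1 measured 53.2, 356 and 530.2 CPM in control and 66.1, 59.2 and 65.5 CPM in Dnmt1Δ/Δep replicates 1, 2 and 3 (log2 fold change -2.30, adjusted p 0.085 in edgeR), and Krt10 gave -1.58 (adjusted p 0.070). Both were called lower in 3 of 12 alternatives, which were no filter on low counts, DESeq2 and the omission of control replicate 1. The cornified envelope genes Ivl and Lor had higher means in Dnmt1Δ/Δep libraries and did not pass either. Ivl gave a log2 fold change of 1.61 (adjusted p 0.061 in edgeR) and was called higher in 4 of 12 alternatives, and Lor gave 1.70 (adjusted p 0.054) and was called higher in 3 of 12. These 4 genes are named here after their values were seen. The late marker Flg was at or below 0.0578 CPM and Krt2 at or below 0.0424 CPM in every library. The part of these markers in the values of the lipid barrier genes was not tested.

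**Figure D5:**
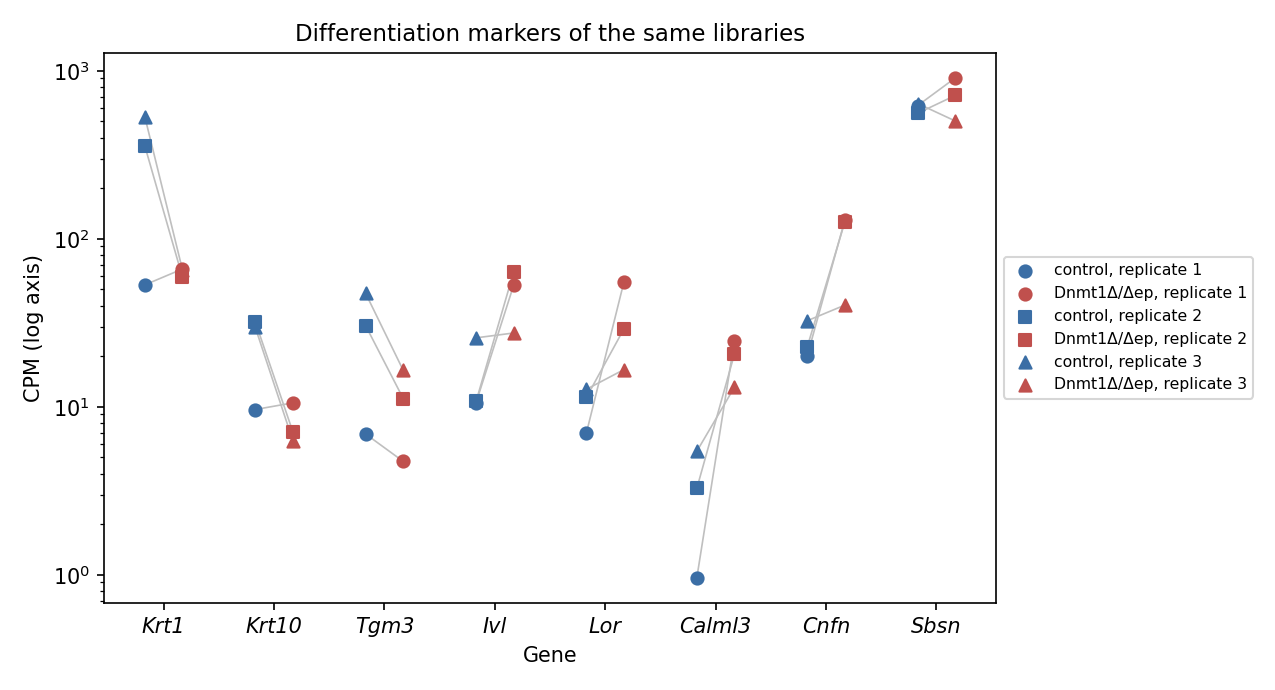
Level of 8 spinous and granular markers (x axis) in each of the 6 libraries, in CPM on a log axis, with blue points for control, red points for Dnmt1Δ/Δep, 1 symbol per replicate number and grey lines between libraries of the same lane. Calml3 and Cnfn lie higher in Dnmt1Δ/Δep libraries, while Krt1 spans 53.2 to 530.2 CPM in control and stays between 59.2 and 66.1 CPM in Dnmt1Δ/Δep libraries.

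Markers of other cells were compared in the same way. Of the 14 basal markers 0 were called higher and 1 lower, Krt15 (log2 fold change -3.66, adjusted p 0.019 in edgeR), against 6.03% and 0.392% of all genes. This call was lost without control replicate 2 or any 1 Dnmt1Δ/Δep library (adjusted p up to 0.081). The summed level of the basal markers was 31833 to 36855 CPM in control and 26606 to 27152 CPM in Dnmt1Δ/Δep libraries. At the adjusted p alone 5 were lower, among them Dst (-0.76), Krt14 (-0.61) and Col17a1 (-0.55), against 1.66% of all genes, and each of these 3 was above that adjusted p in at least 1 alternative (up to 0.062, 0.12 and 0.13). The list as a whole was mixed, since 8 of the 14 fitted changes were above 0, 2 genes were higher at unadjusted p values up to 0.05, and the median log2 fold change was 0.10. Of 10 melanocyte markers 0 were called, against 6.42% of all genes, with 7 higher and 0 lower at unadjusted p values up to 0.05, against 15.8% and 7.79%. The sum of these markers was 233 to 596 CPM in control and 716 to 950.5 CPM in Dnmt1Δ/Δep libraries without overlap. Of 10 fibroblast markers 0 were called, against 6.42% of all genes, with 3 higher at unadjusted p, against 15.8%, and the sums overlapped (16.3 to 35.5 and 17.8 to 71.2 CPM). Of 13 leukocyte markers 4 were tested and 2 called higher, Csf1r (2.67) and Itgam (2.35), against 6.03% of all genes, with sums of 2.00 to 4.26 CPM in control and 4.80 to 6.74 CPM in Dnmt1Δ/Δep libraries, and Cd3e, Cd207, Adgre1 and Tyrobp had at most 3 counts in each library. Csf1r lost its call with the replicate block (adjusted p 0.053) and without control replicate 3 or Dnmt1Δ/Δep replicate 1 or 3 (up to 0.088), and Itgam without control replicate 1 or 2 or any 1 Dnmt1Δ/Δep library (up to 0.16). Of the exonic bases of Itgam 68.7% overlap Gm49368 on the same strand, and of those of Csf1r 15.1% overlap Hmgxb3, so reads of these genes may have been split or dropped. Of 12 sebocyte markers 8 were tested and 0 called, against 6.42% of all genes, with 0 at unadjusted p in either direction, against 23.6%, and with overlapping sums (842 to 1151 and 773 to 1109 CPM), and Mc5r and Awat1 had at most 3 counts in each library. The part of these cells in the values of the lipid barrier genes was not tested.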

How the data were processed

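Keratinocyte cultures of 3 control and 3 Dnmt1Δ/Δep mice were measured by sequencing of poly(A) RNA. The authors trimmed adapters, removed ribosomal reads, aligned with STAR and counted uniquely mapped reads per gene with HTSeq, and the deposited gene table holds raw counts. The submitters' processing notes give GRCm38, whereas the methods print a human build for the gene alignment, so gene positions come from GENCODE M21 on GRCm38. Strand settings of the counting are not given in the sources used here. The authors' comparison tables (means, fold changes, p-values) and the repeat tables were not used. The count table had 0 columns without a sample. Its 5 entries that name no gene held 8.73% to 12.9% of counted reads and were left out. Symbols matched 97.52% of gene identifiers.

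Counts were filtered with filterByExpr (minimum counts 10 and 15), scaled by TMM and tested with the quasi-likelihood test of edgeR 4.0.16 in R 4.3.3, without a block, with Benjamini-Hochberg adjustment over 16829 genes. CPM used the scaled library sizes, and RPKM the union of GENCODE exons. Standard errors came from the F statistic and intervals are 95%. DESeq2 1.42.0, DESeq2 size factors, upper-quartile factors, no filter, a mean RPKM of at least 1, a replicate block and leaving out each library were alternatives. Ratios between genes were compared by exact two-sided permutation. Scripts were tested on simulated data. Figures used Python 3.11.15 and matplotlib 3.10.9.

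The lane was read from the number after the flow cell name in the column headers, and each lane held 1 control and 1 Dnmt1Δ/Δep library with the same replicate number. Across genes, same-numbered libraries deviated together from their group means (correlations of 0.43, 0.28 and 0.30). Libraries of different number were not compared in this way, so the correlations do not establish a pairing. For the lipid barrier genes, control replicate 3 was the highest control for 5 of 8, and Dnmt1Δ/Δep replicate 3 the lowest of its group for 7 of 8. The lane pairs used here rest on the shared lane and number.

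The 9 genes and all lists were chosen with earlier results of these data known. From each list the text names every gene called at both thresholds, then up to 3 higher and 3 lower genes of smallest p at an adjusted p of 0.05, and where fewer than 2 were named so, the 2 most abundant. It also names the 5 genes with profiles most like the lipid barrier genes, and any gene outside this rule is said to be chosen after its values were seen. A further gene that the rule names is not reported here. Krt5, Alox8, Flg, Krt2, Cd3e, Cd207, Adgre1, Tyrobp, Mc5r and Awat1 are named only for their levels or position.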

Additional observations from a re-analysis of the deposited data

How the results depend on the processing

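Alox12b passed both thresholds under all 12 alternatives, with a log2 fold change from 1.93 to 2.32 and an adjusted p of at most 0.016. With the replicate block it was 2.05 (adjusted p 0.0044 in edgeR), and the block changed no call on the 9 genes, lost those on Cnfn, Csf1r and Rnf222, and moved no count of calls over all genes, the 9 genes or the lipid and transcription factor lists by more than 1.5 times. The number of lipid barrier genes called higher was 1 to 2 over the leave-one-out settings, where Elovl4 was added without control replicate 3, and the log2 fold change of Aloxe3 ranged from -0.028 (without Dnmt1Δ/Δep replicate 2, the 1 change of sign) to 0.24 over them. Over all genes, 1014 were called higher and 66 lower. Leaving out 1 library gave 559 to 1183 higher and 15 to 180 lower, with the fewest higher calls without control replicate 2, the fewest lower calls without that library or Dnmt1Δ/Δep replicate 1, and the most of both without control replicate 1. No filter on low counts gave 1294 higher and 107 lower of 27640 genes. A mean RPKM of at least 1 gave 394 higher and 35 lower of 11452 genes. DESeq2 gave 1284 higher and 116 lower of 16829 genes. At the adjusted p alone the 279 lower genes became 35 without control replicate 2, 37 without Dnmt1Δ/Δep replicate 1, 650 without control replicate 1, 603 with the replicate block and 773 with DESeq2. For the ceramide synthesis list, 0 calls higher became 1 with no filter, 1 with DESeq2 and 0 to 2 with 1 library left out. For ceramide processing, 1 call higher became 2 with no filter, 0 at a mean RPKM of at least 1, 2 with DESeq2 and 0 to 3 with 1 library left out. For the hydroperoxide route, 0 became 2 with no filter, 2 with DESeq2 and 0 to 2 with 1 library left out. The cause of these shifts was not tested. With 3 libraries per group, an exact permutation test of single ratios cannot go below 0.1, and Alox12e is limited by depth. A lone lane pair has no replicate, so differences between pairs were not tested.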

Other observations

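The genes whose level followed the lipid barrier genes most closely over the 6 libraries were found by Pearson's r with the mean of their standardized log2 CPM, over all tested genes and with no p. The mean was -1.20, -0.71 and -0.05 in control and 0.95, 1.0 and 0.01 in Dnmt1Δ/Δep replicates 1, 2 and 3, so the 2 replicates 3 lay side by side. Elovl4 (r = 0.97) and Abca12 (0.97) were nearest to it, then Pnpla1 (0.92), Ugcg (0.91), Alox12b (0.88), Smpd1 (0.83), Aloxe3 (0.78) and Cers3 (0.73). The libraries share depth, lanes and condition, and the 8 genes enter the mean themselves.

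The 5 closest other genes were Ddit3, Rnf222, Ccdc65, Slc28a3 and Ephx3, each with r of at least 0.99. Ddit3, a transcription factor of the endoplasmic reticulum stress response, measured 24.3, 27.7 and 32.8 CPM in control libraries and 42.1, 41.8 and 33.1 CPM in Dnmt1Δ/Δep libraries (log2 fold change 0.46, adjusted p 0.11 in edgeR). Rnf222 measured 8.13, 9.83 and 13.7 CPM in control libraries and 24.1, 25.0 and 15.6 CPM in Dnmt1Δ/Δep libraries, and it was the 1 of the 5 called higher (log2 fold change 1.03, adjusted p 0.047 in edgeR), a call kept in 5 of 12 alternatives and lost with no filter, at a mean RPKM of at least 1, with the replicate block (0.074) and without replicate 1 or 2 of either group. Slc28a3, a nucleoside transporter, measured 0.476, 0.913 and 1.84 CPM in control libraries and 4.28, 4.44 and 1.89 CPM in Dnmt1Δ/Δep libraries (log2 fold change 1.73, adjusted p 0.094 in edgeR). Ccdc65 stayed below 0.290 CPM in each library.

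Calls among tested protein-coding genes within 200 kb were also counted for the other 8 lipid barrier genes, against 6.42% of all genes called in either direction. For Abca12 the count was 0 of 1, for Cers3 0 of 3, for Elovl4 0 of 2, for Pnpla1 0 of 8 and for Smpd1 0 of 12, and for Aloxe3 the 1 of 16 was Alox12b. Near Ugcg, 1 of 3 was called, AI481877, named after its values were seen, with a mean of 0.0503 CPM in control libraries and 8.95 CPM in Dnmt1Δ/Δep libraries (adjusted p 0.00093 in edgeR). Near Alox12e, 2 of 13 were called higher, also named after their values were seen. Zmynd15 had a log2 fold change of 1.38 and lost its call without control replicate 2. Mgl2 had a control mean of 0.0130 CPM and a Dnmt1Δ/Δep mean of 0.189 CPM, and lost its call without control replicate 2 or 3 or any 1 Dnmt1Δ/Δep library. Mgl2 and AI481877 could pass the filter on low counts only through their Dnmt1Δ/Δep libraries. The counts near Ugcg and Alox12e therefore cannot be weighed against the share of all genes.

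Degs2, a ceramide hydroxylase of the synthesis list chosen after its values were seen, measured 1.17, 2.06 and 3.63 CPM in control libraries and 7.78, 6.43 and 5.57 CPM in Dnmt1Δ/Δep replicates 1, 2 and 3. The groups did not overlap, and the adjusted p was 0.053 in edgeR (log2 fold change 1.54), with a call in 4 of 12 alternatives and an adjusted p from 0.0010 to 0.18 over them. Of its exonic bases 10.8% overlap Evl. Fasn and Scd1, fatty acid genes of the sebocyte list, gave log2 fold changes of -0.17 (adjusted p 0.67) and -0.11 (adjusted p 0.73), and Pmel, Tyrp1, Col1a1 and Col3a1 of the melanocyte and fibroblast lists gave 0.85, 1.04, 1.29 and 0.71 without passing the adjusted threshold.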
